A study of Homo sapiens with 4 samples.

Results

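The mRNAs of 7 proteins that bind AU-rich, GU-rich or Pumilio elements and set the stability of other mRNAs were examined in KYSE180 cells, an established human cell line from an esophageal squamous cell carcinoma (ESCC). They are ELAVL1, ZFP36, ZFP36L1, ZFP36L2, KHSRP, CELF1 and PUM2. They were chosen by symbol, and their probes were found through the transcript identifiers on the arrays, which gave 10 probes of 50599 and 7 genes of the 13040 kept for the analysis. Ribonucleoprotein immunoprecipitation (RIP) recovers, by an antibody to an RNA-binding protein, the RNA carried by it. The study hybridized RNA from anti-TIA1 immunoprecipitates of cytoplasmic lysates (TIA1 RIP, replicates 1 and 2) and total RNA (input, replicates 1 and 2) of KYSE180 cells to 4 single-colour arrays, to find the mRNAs that TIA1 holds. With 2 arrays in each group all values have limited precision, and nothing in the labels says whether the replicates were separate cultures, so that p-values measure only the spread between these arrays. Immunoprecipitates with control IgG were not analysed here, and whether the total RNA came from the cytoplasm or from whole cells is not given in the sources used here.

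AU-rich elements are stretches of the 3′ untranslated region (3′ UTR), often built around the pentamer AUUUA, that mark short-lived mRNAs. The members of the ZFP36 family (ZFP36, also called tristetraprolin, ZFP36L1 and ZFP36L2) bind them through a pair of zinc fingers and recruit deadenylases, so that the bound mRNA decays. KHSRP promotes decay through its KH domains, CELF1 does so through GU-rich elements, and PUM2, a Pumilio protein, represses mRNAs with a UGUANAUA element. ELAVL1 (HuR) binds U-rich and AU-rich sequences and mostly protects the mRNA. TIA1, the protein pulled down here, also binds U-rich sequences and is known for silencing translation in stress granules. The values below are of the mRNAs that encode these proteins, not of the mRNAs that the proteins bind.

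All 7 mRNAs hold at least 1 AUUUA in their own 3′ UTR, as do 68.4% of all annotated 3′ UTRs and 64.1% to 99.2% of those of like length. The stretches of 30 nucleotides below are shown because they are the densest in AUUUA in each 3′ UTR, taken from the GRCh37 genome over the main transcript of the GENCODE annotation, 5′ to 3′ on the transcript strand, with T written as U and every AUUUA in capitals.
ELAVL1: uuuAUUUAuaccuAUUUAuguAUUUAUUUA
ZFP36: uuuAUUUAugacgacuuuAUUUAuucuaau
ZFP36L1: uauuucucuuucuuugugugaAUUUAUUUA
ZFP36L2: uaugaaaacuAUUUAacuuAUUUAuuaucu
KHSRP: aAUUUAcaaacuuuguguuuuuuuuuuuuu
CELF1: uuguuuuuguuuuuguuucuccuuuAUUUA
PUM2: acuAUUUAuugacuuuauucauccauuugu
They lie at chr19:8026724-8026753 (ELAVL1, minus strand), chr19:39899830-39899859 (ZFP36, plus strand), chr14:69254449-69254478 (ZFP36L1, minus strand), chr2:43450593-43450622 (ZFP36L2, minus strand), chr19:6413218-6413247 (KHSRP, minus strand), chr11:47493498-47493527 (CELF1, minus strand) and chr2:20451204-20451233 (PUM2, minus strand). The ELAVL1 stretch holds 4 pentamers, that of each ZFP36 family member 2, and those of KHSRP, CELF1 and PUM2 1 each. Where stretches of a 3′ UTR tied in AUUUA, the one with the most U was taken. The number of U, from 15 (ZFP36L2) to 22 (CELF1), thus partly reflects this choice.

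The longer match UAUUUAU, which contains the pentamer, was most frequent in ELAVL1 and the ZFP36 family. It occurred 5 times in the 3′ UTR of ELAVL1 (4910 nucleotides), 3 times each in ZFP36 (708), ZFP36L1 (1871) and ZFP36L2 (1917), once each in CELF1 (6293) and PUM2 (2848) and 0 times in KHSRP (1922). Among annotated 3′ UTRs within 10% of the same length, as many matches or more were found in 3.79% for ELAVL1, 1.51% for ZFP36, 5.03% for ZFP36L1 and 5.26% for ZFP36L2. At least 1 match was found in 70.5%, 20.95%, 40.1% and 40.7% of these, in the same order, in 41.2% of those of the length of KHSRP, and in 73.6% and 54.5% of those of the lengths of CELF1 and PUM2. The 3′ UTR of KHSRP held a single AUUUA and 27 overlapping matches to UUUUUU, a number that 2.83% of 3′ UTRs of its length reach. PUM2 held 2 matches to UGUANAUA, the element read by Pumilio proteins, and 15.4% of 3′ UTRs of its length hold as many or more. The other 6 members held 0, where 17.8% to 66.2% of 3′ UTRs of their lengths hold at least 1. A GU-rich element of 11 nucleotides was found in none of the 7, and in 0.756% to 7.26% of 3′ UTRs of their lengths. Matches were searched on the transcript strand only and counted with overlaps, and a match does not show that a protein binds there.

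**Figure D1:**
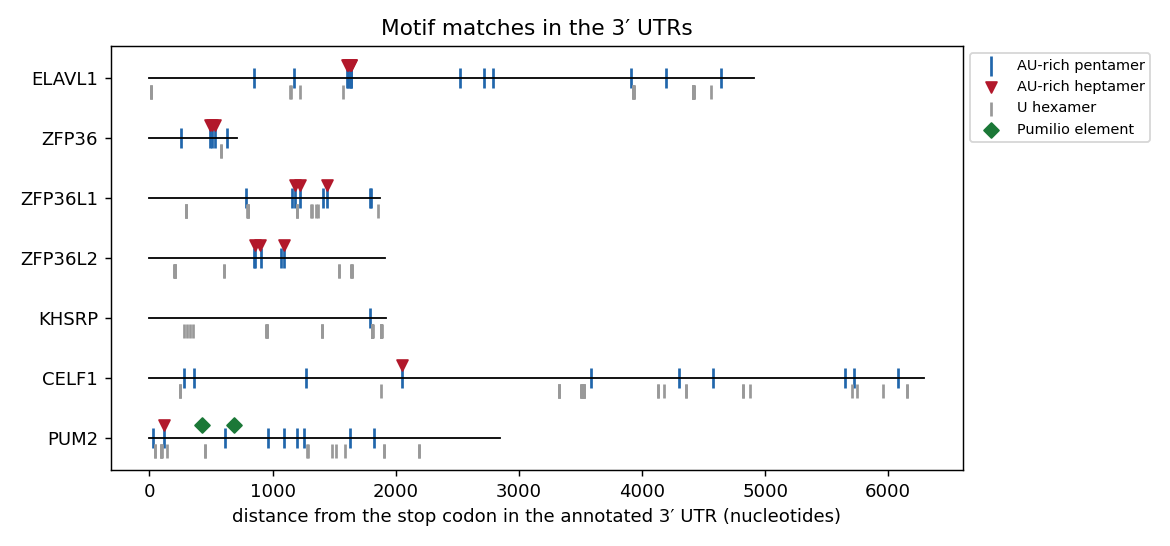
Positions of the motif matches along the annotated 3′ UTR of each of the 7 mRNAs, in nucleotides from the stop codon (AU-rich pentamer, AU-rich heptamer, U hexamer and Pumilio element). The heptamers are most frequent in ELAVL1, ZFP36, ZFP36L1 and ZFP36L2, and KHSRP has 1 pentamer and 0 heptamers.

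All 10 probes were well above background on all 4 arrays, and none of their 19 spots was marked as uneven, deviant or saturated. The authors deposited the fluorescence intensity of each spot after background subtraction, not normalized between arrays. The 75th percentile of this signal reached 1514 and 1271 for TIA1 RIP, 714.2 for total RNA replicate 1 and 69.89 for total RNA replicate 2, where only 32.2% of spots were well above background, against 45.8% to 48.4% on the other arrays. Total RNA replicate 2 thus stands apart, and the ratios of the 7 mRNAs are given against each total RNA array. Signals were converted to log2, the 75th percentile of the array was subtracted, and where a gene had several probes their mean was taken. Of 10 markers of squamous epithelium, all 10 were kept, and of 9 markers of blood, endothelial and fibroblast cells 4 were kept (PTPRC, CD68, VWF and COL1A1). CD68 lay above the 75th percentile of every array, at 3.35 and 2.12 in TIA1 RIP and at 2.78 and 2.41 in total RNA. The other kept markers of these cells were dim. COL1A1 stood at -2.64 and -3.78 in TIA1 RIP and at -1.16 and -0.92 in total RNA. PTPRC stood at -2.16 and -1.53 against -3.36 and -0.32, and VWF at -3.18 and -2.38 against -3.53 and -1.01. The part of these markers in the results was not tested. Of the squamous markers 8 of 10 were lower in TIA1 RIP on the means, where 48.6% of all genes had a ratio above 0. Their median log2 ratio of TIA1 RIP over total RNA was -0.31. Over total RNA replicate 1 alone it was 0.30, and over total RNA replicate 2 alone -0.90. The sign of this median thus rests on total RNA replicate 2. For 2 of the 10, KRT14 and KRT17, both TIA1 RIP arrays lay below both total RNA arrays, as for 21.7% of all genes. KRT13 and SOX2, named after their values were seen, stood higher on the replicate 2 arrays of both groups (KRT13 at -1.12 and 2.88 in TIA1 RIP and at -1.14 and 3.78 in total RNA, SOX2 at 2.93 and 6.56 and at 2.55 and 5.41). The RNA came from bulk cultures. For a difference between replicates, fewer cells with an mRNA and less of it per cell thus cannot be told apart. The ratio of TIA1 RIP to total RNA sets the immunoprecipitate beside the input and measures neither.

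Of the 7 mRNAs, 5 had a higher mean scaled signal in TIA1 RIP than in total RNA (ZFP36, ZFP36L1, ELAVL1, PUM2 and ZFP36L2) and 2 a lower one (KHSRP and CELF1). None passed the test. In limma, 0 of the 7 had an unadjusted p-value under 0.05, and their adjusted p-values lay between 0.777 (ZFP36) and 0.95 (ZFP36L2). Across all 13040 genes limma called 0 higher and 0 lower in TIA1 RIP (0.0% each), and 144 and 524 at an unadjusted p-value under 0.05. The log2 ratio (TIA1 RIP over total RNA) had a median of 0.48 for the 7 mRNAs and -0.04 for all genes, of which 48.6% had a ratio above 0. With only probes detected on all 4 arrays, as all those of the 7 were, the median over 9238 genes was -0.35. An exact permutation test of 2 arrays against 2 cannot give a two-sided p-value below 0.333.

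**Figure D2:**
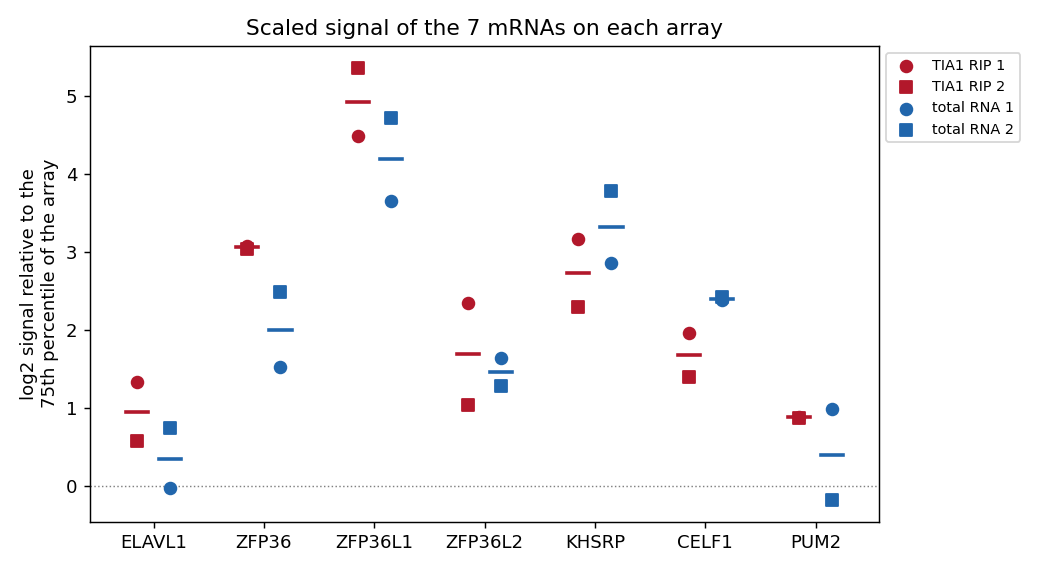
Scaled log2 signal of each of the 7 mRNAs on the 2 TIA1 RIP arrays (red) and the 2 total RNA arrays (blue), with circles for replicate 1, squares for replicate 2 and bars for the group means. The groups stand apart for ZFP36, higher in TIA1 RIP, and for CELF1, lower in TIA1 RIP; levels of different genes cannot be compared, since each probe has its own brightness.

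ZFP36 encodes tristetraprolin, the founding member of the family that destabilizes AU-rich mRNAs, and its gene spans 39897487 to 39900052 of chromosome 19 (GRCh37, plus strand). Its scaled log2 signal was 3.07 and 3.04 in TIA1 RIP and 1.52 and 2.48 in total RNA. Both TIA1 RIP arrays stood above both total RNA arrays, and ZFP36 was the only member for which this held. Over all genes, 19.4% were placed the same way. The log2 ratio was 1.06 (standard error 0.81, adjusted p = 0.777 from limma). It was 1.55 and 1.52 for TIA1 RIP replicates 1 and 2 over total RNA replicate 1, and 0.60 and 0.57 over total RNA replicate 2. Over total RNA replicate 1 alone the ratio of the means exceeded that of 95.5% of genes, and over total RNA replicate 2 alone that of 65.0%. The pattern over the 4 arrays was nearest to that of NPTN, with a Euclidean distance of 0.13 between gene-centred log2 values among 8338 genes with an mRNA accession that were detected on all arrays.

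ZFP36L1 (chromosome 14, minus strand, 69254377 to 69262970) encodes a paralog with the same zinc finger fold. Its scaled log2 signal was 4.48 and 5.36 in TIA1 RIP and 3.65 and 4.72 in total RNA. The groups overlapped, since TIA1 RIP replicate 1 lay below total RNA replicate 2 by 0.25. The other 3 pairs of arrays had log2 ratios from 0.63 to 1.71. Over the means the log2 ratio was 0.73 (standard error 0.85, adjusted p = 0.84 from limma), with 1.27 over total RNA replicate 1 and 0.19 over total RNA replicate 2. A pair of probes measured this gene. The first had 4.60 and 5.55 in TIA1 RIP against 3.54 and 4.10 in total RNA, so that its groups stood apart, and the second had 4.35 and 5.17 against 3.76 and 5.35. Both probes were higher in TIA1 RIP over total RNA replicate 1, by 1.53 and 1.00, and over total RNA replicate 2 they disagreed, with log2 ratios of 0.98 and -0.59. FAM117A had the nearest pattern, at a distance of 0.14.

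ZFP36L2 (chromosome 2, minus strand, 43449541 to 43453745) was the remaining family member with a probe examined here. It stood at 2.35 and 1.04 in TIA1 RIP and at 1.64 and 1.28 in total RNA, with the total RNA arrays between the TIA1 RIP arrays. The log2 ratio was 0.24 (standard error 0.85, adjusted p = 0.95 from limma), with 0.05 over total RNA replicate 1 and 0.42 over total RNA replicate 2, and without TIA1 RIP replicate 1 it was -0.42. Its probe was printed in 10 spots, whose log2 signals had an SD of 0.032 to 0.089 within an array. PLCB2 had the nearest pattern, at a distance of 0.069.

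ELAVL1 (chromosome 19, minus strand, 8023457 to 8070543) encodes HuR, the member known for protecting mRNAs. Its scaled log2 signal was 1.33 and 0.57 in TIA1 RIP and -0.03 and 0.74 in total RNA. TIA1 RIP replicate 2 lay below total RNA replicate 2 by 0.17, and the other 3 pairs of arrays had log2 ratios from 0.59 to 1.36. The log2 ratio was 0.60 (standard error 0.82, adjusted p = 0.86 from limma), with 0.98 over total RNA replicate 1 and 0.21 over total RNA replicate 2. F8A1 had the nearest pattern, at a distance of 0.17.

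KHSRP (chromosome 19, minus strand, 6413113 to 6424822) encodes a KH domain protein that recruits decay enzymes to AU-rich mRNAs. It stood at 3.17 and 2.29 in TIA1 RIP and at 2.86 and 3.78 in total RNA. The groups overlapped, and only TIA1 RIP replicate 1 over total RNA replicate 1 gave a ratio above 0, of 0.32. The log2 ratio over the means was -0.59 (standard error 0.84, adjusted p = 0.866 from limma), with -0.13 over total RNA replicate 1 and -1.05 over total RNA replicate 2. Its probes had ratios of 0.09 and -0.34 over total RNA replicate 1 and of -1.05 and -1.05 over total RNA replicate 2. Under quantile normalization the ratio was 0.08, and with GC content removed it was 0.16, so that its direction was not settled. DNAAF3 had the nearest pattern, at a distance of 0.075.

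CELF1 (chromosome 11, minus strand, 47487485 to 47587121), which encodes a protein that reads GU-rich elements, was the member with the lowest ratio. It stood at 1.96 and 1.40 in TIA1 RIP and at 2.38 and 2.42 in total RNA. Both TIA1 RIP arrays lay below both total RNA arrays, as they did for 21.7% of all genes. The log2 ratio was -0.72 (standard error 0.78, adjusted p = 0.827 from limma), and it was much the same over either total RNA array, at -0.70 and -0.74. Its probes, listed under different transcripts of the gene, both stood apart in this direction, with ratios of -0.67 and -0.78 on the means. PAF1 had the nearest pattern, at a distance of 0.086.

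PUM2 (chromosome 2, minus strand, 20448452 to 20551995) encodes the Pumilio protein of the group. Its TIA1 RIP values were close, at 0.89 and 0.87, and its total RNA values were not, at 0.98 and -0.18. The log2 ratio was -0.09 and -0.11 over total RNA replicate 1 and 1.08 and 1.05 over total RNA replicate 2, so that its mean of 0.48 (standard error 0.83, adjusted p = 0.89 from limma) rests on total RNA replicate 2. PUM2 also had the lowest GC content of the 7 main transcripts, 40.7%, against 46.3% for ELAVL1, 47.6% for CELF1, 49.3% for ZFP36L1, 54.4% for ZFP36L2, 57.2% for ZFP36 and 58.9% for KHSRP, and with GC content removed on each array its ratio was -0.39. The same step gave 1.70 for ZFP36, 0.73 for ZFP36L1, 0.68 for ZFP36L2, 0.32 for ELAVL1 and -0.88 for CELF1. DYNC1LI2 had the nearest pattern, at a distance of 0.034.

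**Figure D3:**
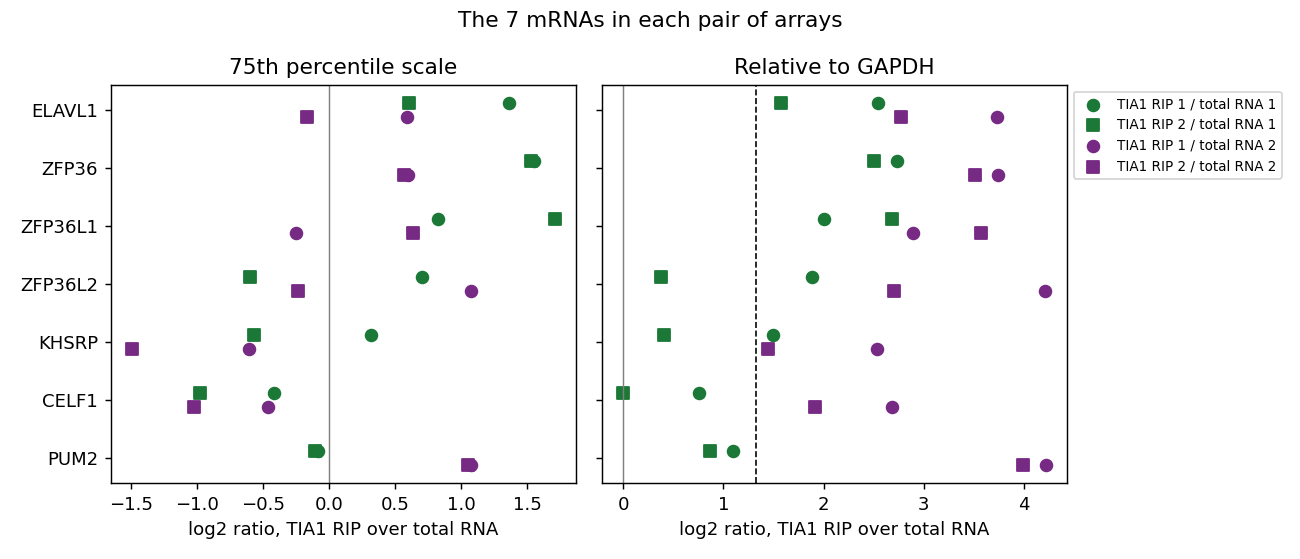
Log2 ratio of each TIA1 RIP array over each total RNA array for the 7 mRNAs, on the 75th percentile scale (left) and relative to GAPDH (right), with the dashed line at 2.5-fold. ZFP36 is above 0 and CELF1 below 0 in all 4 pairs on the left, and on the right every pair with total RNA replicate 2 lies past the line.

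**Figure D4:**
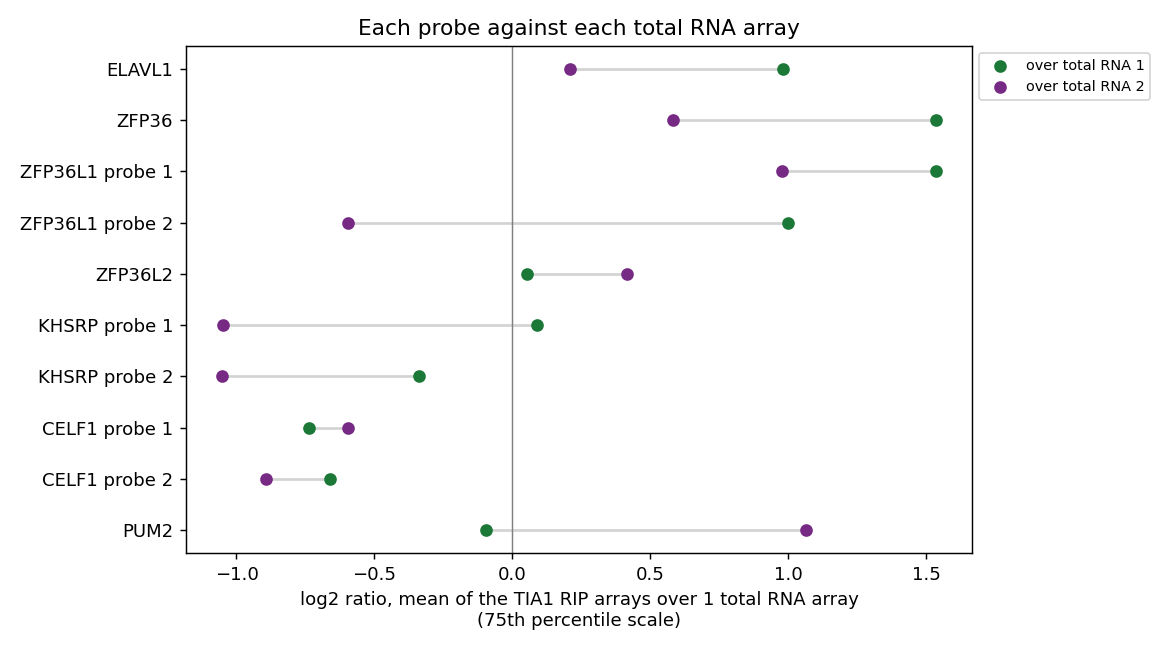
Log2 ratio of the mean of the TIA1 RIP arrays over total RNA replicate 1 (green) and over total RNA replicate 2 (purple) for each of the 10 probes, on the 75th percentile scale, with a grey line joining the values of a probe. The second ZFP36L1 probe, the first KHSRP probe and the PUM2 probe change sign between the total RNA arrays.

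The order of the members does not depend on the factor by which an array is scaled, since it compares ratios within the same arrays. Of the 21 pairs of members, 9 had the same order in all 4 pairs of arrays, which share arrays and are not independent. The share among pairs of all genes was not computed, so that this count cannot be read as a trait of the members. For a pair of members with the same order in all 4, the exact two-sided permutation test of 2 arrays against 2 gives p = 0.333. This is the smallest it can give, so that none of these orders is shown beyond the spread between arrays. The ratio of CELF1 was below those of ZFP36, ZFP36L1, ELAVL1, PUM2 and ZFP36L2 in all 4, by 1.78, 1.45, 1.32, 1.21 and 0.96 on the means. The ratio of KHSRP was below those of ZFP36, ZFP36L1 and ELAVL1 in all 4, by 1.65, 1.32 and 1.18. The remaining such pair was ZFP36 over ELAVL1, by 0.47 on the mean and by 0.008 at the least. Within the family, ZFP36 and ZFP36L1 differed by 0.33 and kept no order, with ZFP36 higher in 2 of the 4 pairs of arrays. KHSRP and CELF1, the lowest members, differed by 0.13, with KHSRP higher in 2 of the 4.

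**Figure D5:**
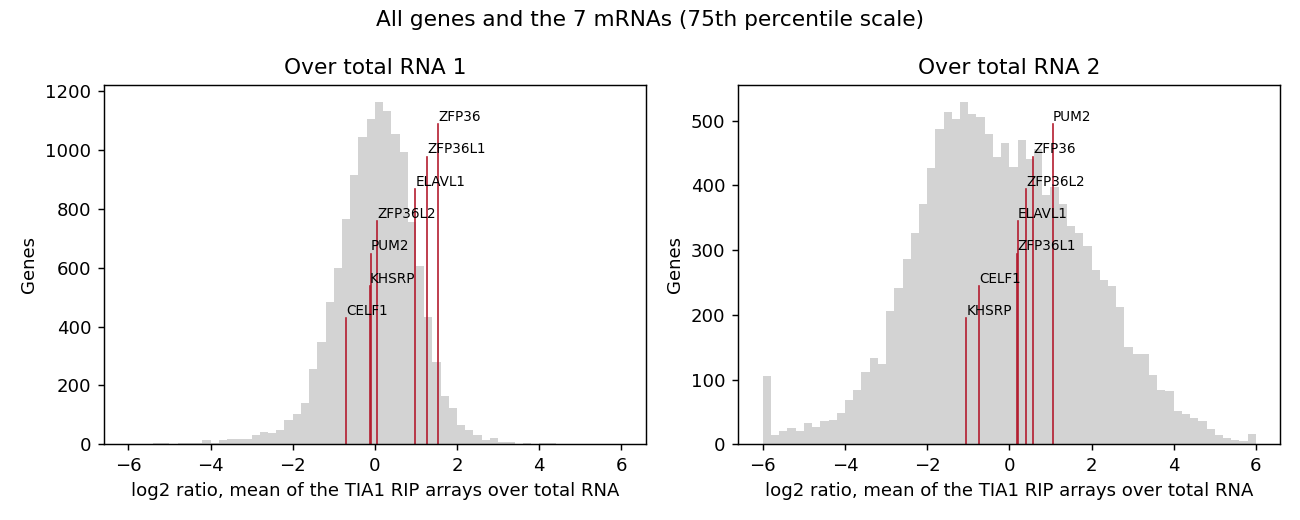
Number of the 13040 genes by log2 ratio of the mean of the TIA1 RIP arrays over total RNA replicate 1 (left) and total RNA replicate 2 (right), in bins of 0.2, with values beyond 6 in the outermost bins and red lines at the 7 mRNAs. ZFP36, ZFP36L1 and ELAVL1 lie on the upper side on the left, above 95.5%, 91.9% and 85.7% of genes, and nearer the middle of the wider distribution on the right, above 65.0%, 58.3% and 58.6%.

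The study measured binding as the enrichment relative to GAPDH mRNA, taken as a transcript that TIA1 does not bind. Its criterion of more than 2.5-fold also had to be met in sequencing of the immunoprecipitates, which was not analysed here. On the arrays all 7 mRNAs exceeded 2.5-fold in TIA1 RIP on the means, as did 72.4% of all genes. With only probes detected on all 4 arrays, 64.2% of genes did. The fold was 8.70 for ZFP36, 6.91 for ZFP36L1, 6.30 for ELAVL1, 5.83 for PUM2, 4.91 for ZFP36L2, 2.77 for KHSRP and 2.53 for CELF1, which lies just past the criterion. The median log2 enrichment was 2.54 for the 7 and 2.02 for all genes. GAPDH itself stood at 6.49 and 6.69 in TIA1 RIP and at 7.67 and 9.63 in total RNA, a log2 ratio of -2.06 (standard error 0.93, adjusted p = 0.776 from limma), so that GAPDH alone supplies 2.06 of each log2 enrichment. Measured against the median of all genes instead, 0 of the 7 passed 2.5-fold, against 12.7% of all genes, and with ACTB as the reference the count was 5, against 65.8%.

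Relative to GAPDH, 0 of the 7 mRNAs and 0 of all genes (0.0%) had an adjusted p-value under 0.05 in limma. ZFP36, ZFP36L1 and ELAVL1 had an unadjusted p-value under 0.05 in the same limma fit, each with an adjusted p = 0.221, as did 19.5% of all genes in this direction. Both TIA1 RIP arrays stood above both total RNA arrays for 6 of the 7, all but CELF1, and for 76.0% of all genes. The count of 0 depends on total RNA replicate 1. Without that array the remaining total RNA array is taken to vary like TIA1 RIP, so that calls from that fit are not given. The log2 enrichment of the 7 then ranged from 1.99 (KHSRP) to 4.11 (PUM2). ZFP36, ZFP36L1 and ELAVL1 were past 2.5-fold in all 4 pairs of arrays, as were 26.2% of all genes. Over total RNA replicate 1, the fold relative to GAPDH for TIA1 RIP replicates 1 and 2 was 6.65 and 5.65 for ZFP36, 4.01 and 6.42 for ZFP36L1 and 5.81 and 2.98 for ELAVL1. It was 3.70 and 1.30 for ZFP36L2, 2.82 and 1.33 for KHSRP, 2.13 and 1.82 for PUM2 and 1.69 and 1.00 for CELF1. Against total RNA replicate 2 each of the 7 exceeded 2.5-fold in TIA1 RIP replicates 1 and 2, where 76.7% and 77.7% of all genes did. With total RNA replicate 1, 5 passed it with TIA1 RIP replicate 1 and 3 with TIA1 RIP replicate 2, against 46.0% and 40.0% of all genes.

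TIA1 mRNA, which encodes the protein pulled down, stood at -0.28 and -1.25 in TIA1 RIP and at -0.48 and -0.45 in total RNA. Its log2 ratio was -0.29 (standard error 0.81, adjusted p = 0.933 from limma), below those of 5 of the 7 mRNAs on the means. Its probes disagreed, with log2 ratios of -1.24 and 0.65, and the second was detected on 3 of the 4 arrays.

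Other proteins that bind such elements or belong to the same families were examined as a list of 25 genes. Of these, 19 were kept, and 6 were not, among them the neuronal paralogs of ELAVL1 (ELAVL2, ELAVL3 and ELAVL4) and CELF2, CELF3 and CELF4. By limma 0 of the 19 changed, with 0 at an unadjusted p-value under 0.05. Their median log2 ratio was 0.43, and it was -0.09 over total RNA replicate 1 alone and 0.84 over total RNA replicate 2 alone. Among those with an mRNA accession that were detected on all 4 arrays, as for the genes named from the lists that follow, the highest were FXR1 (log2 ratio 1.74), HNRNPDL (1.49) and NANOS1 (1.098), a partner of the Pumilio proteins, and the lowest NANOS3 (-2.05), CELF6 (-1.50), a paralog of CELF1, and RC3H2 (-0.45), which encodes a roquin. FXR1 had 3.97 and 4.37 in TIA1 RIP and 4.36 and 0.51 in total RNA, so that its ratio rests on total RNA replicate 2. NANOS1 stood at 1.25 and 0.56 against 0.11 and -0.49. Of the 19 genes, both TIA1 RIP arrays stood above both total RNA arrays for 5, NANOS1 among them, and below them for 2, NANOS3 and CELF6, against 19.4% and 21.7% of all genes.

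The decay machinery that these proteins recruit gave a like picture. Of 35 genes for deadenylases, decapping factors and the exosome, 31 were kept, 0 changed by limma and 1, CNOT8, named after its values were seen, had an unadjusted p-value under 0.05. The median log2 ratio was 0.39, and it was -0.23 over total RNA replicate 1 alone and 0.99 over total RNA replicate 2 alone. CNOT7, a deadenylase of the CCR4-NOT complex to which ZFP36 proteins bind, was the highest, at 2.65 and 2.22 in TIA1 RIP against 1.68 and -0.70 in total RNA (log2 ratio 1.94). BTG2 (1.49) and EXOSC7 (1.22) followed, and EXOSC4 (-1.91), EDC4 (-1.68), a scaffold of decapping, and EXOSC5 (-1.29) were the lowest. Of the 31 genes, both TIA1 RIP arrays stood above both total RNA arrays for 8 and below them for 3, against 19.4% and 21.7% of all genes.

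Of 17 genes for kinases, a phosphatase, 14-3-3 proteins and the methyltransferase CARM1, which act on such binding proteins, all 17 were kept and 0 changed by limma, with 0 at an unadjusted p-value under 0.05. The median log2 ratio was 0.22, and it was 0.37 over total RNA replicate 1 alone and 0.23 over total RNA replicate 2 alone. YWHAB, a 14-3-3 protein that binds phosphorylated ZFP36, was the highest (5.59 and 5.13 in TIA1 RIP, 4.79 and 2.52 in total RNA, log2 ratio 1.70). PPP2CA, the catalytic subunit of the phosphatase that opposes this step, had a log2 ratio of 1.31 and CHEK2, a kinase that phosphorylates HuR, of 1.13. MAPK11 (-1.08), MAPK14 (-0.73), both p38 kinases, and MAPKAPK3 (-0.42) were the lowest. Of the 17 genes, both TIA1 RIP arrays stood above both total RNA arrays for 7 and below them for 1, against 19.4% and 21.7% of all genes. The part of GC content in the ratios of these lists was not tested.

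Over all genes with an annotated 3′ UTR, the median log2 ratio was set beside the number of UAUUUAU matches. It was -0.20 for 7653 genes with 0 matches and 0.60 for 716 genes with 3 or more, a class that holds ELAVL1, ZFP36, ZFP36L1 and ZFP36L2. Over total RNA replicate 1 alone the same medians were 0.04 and 0.06, and over total RNA replicate 2 alone -0.60 and 1.11. The median GC content of the transcripts was 53.1% in the first class and 40.3% in the second, and with GC content removed the medians were 0.04 and -0.08. Over total RNA replicate 1 alone, ZFP36 (1.54), ZFP36L1 (1.27) and ELAVL1 (0.98) lay above the median of that class and ZFP36L2 (0.05) just below it. Over total RNA replicate 2 alone all 4 lay below it, with ZFP36 at 0.58, ZFP36L2 at 0.42, ELAVL1 at 0.21 and ZFP36L1 at 0.19. These values describe genes on the same 4 arrays and are not independent replicates.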

How the data were processed

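RNA from anti-TIA1 immunoprecipitates and total RNA of KYSE180 cells (2 arrays each, grouped by the sample labels, 0.2 μg RNA labelled per array) was hybridized to Agilent whole human genome arrays. Per the file headers, the authors extracted the arrays with Feature Extraction 10.7.1.1 and deposited a fluorescence intensity for each spot, background-subtracted but not normalized between arrays, with other columns of flags per spot. The authors worked further in GeneSpring. All 4 arrays share 1 slide and 1 scan, so that no block for these was fitted.

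Of 58717 spots (50599 probes), 299 to 382 on each array were excluded for a flag of unevenness or deviation. Detection needed at least 0.5 of a probe's spots well above background, and 20100 probes detected in both replicates of 1 group or the other were kept. Symbols, for 68.2% of probes, were taken from RefSeq (names alone) and from GENCODE transcripts. Coordinates are of GRCh37, which the file headers name. limma 3.58.1 in R 4.3.3 tested log2 values scaled to the 75th percentile, and values minus GAPDH of the same array, with Benjamini-Hochberg adjustment over all genes and a threshold of 0.05. The fit was tested on simulated data. GC content was removed by lowess per array. The fold of 2.5 is that of the study, which required it on arrays and in sequencing, and was applied here to the arrays alone.

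All 7 members, GAPDH, ACTB and TIA1, the 3 highest and 3 lowest of each pathway list and the nearest gene of each member are named. The members and lists were chosen with earlier results of these data known. A raw mean signal column was not found in the files, so the normexp alternative used the median signal.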

Additional observations from a re-analysis of the deposited data

How the results depend on the processing

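Results were recomputed with normexp, with other scalings, filters, probes, references and folds, with GC content removed and without each array. The replicate numbers are shared by the groups, and same-numbered arrays deviated together across genes (r = 0.453), but the labels do not say that a number marks a shared culture. A limma fit with this number as the block called 57 genes higher and 299 lower, and no member (lowest adjusted p = 0.646, ZFP36). Each number is shared by an array of each group, so the block cannot change a log2 ratio. The side on which a member lies was therefore not tested by it. Leaving out 1 array moved the count of genes called higher between 0 and 1849 and that of genes called lower between 0 and 2052, both highest without total RNA replicate 1, and without TIA1 RIP replicate 1 the count of lower genes was 7. The count of the 7 past 2.5-fold relative to GAPDH ranged from 3 (without total RNA replicate 2, where 42.3% of all genes passed) to 7 when 1 array was left out. It was 2 under quantile normalization (33.7% of all genes), 0 against the median of all genes (12.7%), and 5 with GC content removed (60%), with normexp (54%) and with ACTB (65.8%). The median log2 ratio of the 7 was 5.30 when arrays were scaled to the E1A spike-ins, where the median of all genes was 4.78. With that scaling 8410 of the 13040 genes were called higher, among them all members but KHSRP and CELF1. On that scale KHSRP (4.23) and CELF1 (4.10) turned positive, while relative to the median of all genes they stood as before at -0.55 and -0.69. KHSRP also turned, to 0.0801 under quantile normalization and to 0.16 with GC content removed. PUM2 turned to -0.39 with GC content removed, and ranged from -0.10 (without total RNA replicate 2) to 1.06 (without total RNA replicate 1) when 1 array was left out. ZFP36L2 ranged from -0.42 (without TIA1 RIP replicate 1) to 0.89 (without TIA1 RIP replicate 2). Relative to GAPDH, the block together with GC content removed gave 6311 calls among the 11596 genes with a known GC content. All members but CELF1 and PUM2 were among these calls. The cause was not tested. ZFP36, ZFP36L1 and ELAVL1 stayed above 0 under every alternative run. The slide could not be used as a block, since all arrays lie on the same slide. In the fit without the block, the SE of each member, 0.78 to 0.85, limits what 2 arrays per group can show.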
